A study of Mus musculus with 12 samples.

Results

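The genes described here are 10 transcripts that mark the resident macrophage of the mouse liver, the Kupffer cell: *Clec4f*, *Timd4*, *Vsig4*, *Cd5l*, *Marco*, *Folr2*, *C1qa*, *C1qb*, *C1qc* and *Adgre1*. They were chosen by name, as known markers, with earlier results of these data known. All 10 were listed in both deposited count tables, which held 20775 genes for the chow livers, 22709 for the HFCF livers and 20093 in common. RNA was measured by bulk RNA sequencing of whole liver in 12 male mice, 3 in each of 4 groups. Every mouse was C57BL/6N and HuR flox/flox, that is, floxed at *Elavl1*, the gene for the RNA-binding protein HuR, so the controls carried the floxed allele too. Per the labels, mice 4 to 6 months old received AAV8-Tbg-Cre, a virus in which a hepatocyte promoter drives Cre recombinase (HuRHep-/-), or AAV8-Tbg-null as control (WT). Each genotype was kept on normal chow, for a time the labels do not give, or on HFCF, a diet with 40 kcal% fat, 2% cholesterol and 20 kcal% fructose, for 16 weeks. The study's methods describe instead an albumin-driven Cre cross, and which of the 2 routes made these livers could not be settled. Neither route aims at macrophages.

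Kupffer cells sit in the liver sinusoids, where they clear bacteria, immune complexes, aged blood cells and dying cells from portal blood. The long-lived resident cells carry *Clec4f*, *Timd4* and *Vsig4*. When a liver is injured or fed a fatty diet, blood monocytes enter and take on part of the same program, and these newer cells are known to be late to express *Timd4*. The 10 genes therefore read both the presence of liver macrophages and the kind of macrophage present. In bulk tissue fewer cells of a type and less RNA per cell cannot be told apart, and this holds for every level below.

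The targeted gene went against the labels. *Elavl1* stood at 31.1, 29.3 and 31.2 CPM (counts scaled to a common library size) in the chow livers labelled WT and at 42.9, 39.4 and 39.0 CPM in those labelled HuRHep-/-. In HFCF livers the levels were 23.8, 24.2 and 27.0 CPM under the label WT and 32.1, 31.9 and 33.7 CPM under HuRHep-/-. *Elavl1* was thus higher in all 6 livers labelled HuRHep-/- than in the livers labelled WT on the same diet (log2 fold change 0.39 over both diets, limma adjusted p = 0.000400). The counts cover the whole gene, so they do not separate a transcript that has lost the floxed part, and genotype is given below as labelled. Library totals lay between 30071731 and 35949203 counts. The 10 genes were well counted at this depth, with 1509 to 4852 counts a library for *Clec4f* and, for the least abundant, 66 to 178 for *Timd4* and 64 to 472 for *Marco*. Chow and HFCF livers were deposited as separate count tables, so diet and table cannot be told apart.

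The genes lie at 8 places in the GRCm38 genome, 3 of them forming 1 cluster. *C1qb* (chr4:136880129-136886187), *C1qc* (chr4:136889804-136893065) and *C1qa* (chr4:136895917-136898803) follow each other on the minus strand. The others are *Clec4f* (chr6:83644542-83656187, minus strand), *Timd4* (chr11:46810800-46844332, plus), *Vsig4* (chrX:96247203-96293438, minus), *Cd5l* (chr3:87357881-87371073, plus), *Marco* (chr1:120474538-120505024, minus), *Folr2* (chr7:101839988-101857194, minus) and *Adgre1* (chr17:57358691-57483527, plus). No exon of the 10 overlaps an exon of another gene on the same strand. Part of the *Folr2* exons lies opposite to exons of *Gm10602*, and the counting was set to the reverse strand.

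Because these genes moved together from liver to liver within a group, their promoters were set side by side. RefSeq start windows of 300 bases on GRCm38.p6, from 250 bases before the annotated start to 50 after it, were at hand for 8 of the 10 genes, with 2 windows for *Folr2*. *C1qa* and *Adgre1* had none. Windows of *Clec4f* (chr6:83656067-83656366, minus strand), *Timd4* (chr11:46810549-46810848, plus), *Cd5l* (chr3:87357631-87357930, plus) and *Marco* (chr1:120504975-120505274, minus) are printed 5′ to 3′ on the strand of the gene, since the results turn on these 4 genes. Capitals mark the half-site of the MAF family, TGCTGA or its reverse complement TCAGCA, a family with members active in macrophages.
Clec4f: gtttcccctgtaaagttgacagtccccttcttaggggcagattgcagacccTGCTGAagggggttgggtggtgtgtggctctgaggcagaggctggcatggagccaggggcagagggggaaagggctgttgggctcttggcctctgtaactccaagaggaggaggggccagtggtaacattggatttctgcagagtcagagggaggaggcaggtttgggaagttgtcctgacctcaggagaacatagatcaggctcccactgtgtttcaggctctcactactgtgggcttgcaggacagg
Timd4: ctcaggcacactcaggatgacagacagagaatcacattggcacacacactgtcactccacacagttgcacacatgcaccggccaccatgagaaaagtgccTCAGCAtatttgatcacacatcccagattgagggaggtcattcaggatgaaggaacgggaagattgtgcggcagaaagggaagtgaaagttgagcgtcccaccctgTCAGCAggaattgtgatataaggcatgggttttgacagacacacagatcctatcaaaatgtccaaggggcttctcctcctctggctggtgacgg
Cd5l: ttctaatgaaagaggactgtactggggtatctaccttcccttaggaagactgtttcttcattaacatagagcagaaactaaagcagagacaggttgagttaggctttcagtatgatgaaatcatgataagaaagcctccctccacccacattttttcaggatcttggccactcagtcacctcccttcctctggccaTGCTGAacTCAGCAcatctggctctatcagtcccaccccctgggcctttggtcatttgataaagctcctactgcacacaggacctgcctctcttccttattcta
Marco: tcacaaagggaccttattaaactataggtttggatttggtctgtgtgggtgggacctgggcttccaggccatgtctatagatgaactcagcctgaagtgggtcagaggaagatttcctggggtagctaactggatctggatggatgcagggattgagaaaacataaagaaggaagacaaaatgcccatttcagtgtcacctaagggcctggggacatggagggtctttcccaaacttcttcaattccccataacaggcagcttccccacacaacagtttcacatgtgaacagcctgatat
The half-site stood 199 bases before the start of *Clec4f*, 150 and 44 bases before that of *Timd4*, and 54 and 46 bases before that of *Cd5l*, where it appears once on each strand. The *Marco* window held none.

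Searched on both strands, TGCTGA was in 7 of the 9 windows and 6 of the 8 genes (*Clec4f*, *Timd4*, *Vsig4*, *Cd5l*, *Folr2* and *C1qb*), against 19.5% of all 32851 windows of the same length. The core of the macrophage factor PU.1, GAGGAA, was in 5 windows (*Vsig4*, *Cd5l*, *Marco*, *C1qb* and *C1qc*), against 28.3% of all windows. The nuclear receptor half-site AGGTCA was in 3 (*Clec4f*, *Timd4* and *C1qc*), against 16.3%. Matches of different motifs did not overlap in these windows. These are letter matches in short windows, described without a test.

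To rank the genes among themselves, levels were divided by exon length (RPKM, reads scaled for both exon length and library size). In chow livers labelled WT the order of the mean level was *C1qa* 29.2 ± 4.59 (SD, n = 3), *C1qb* 26.6 ± 6.08, *Cd5l* 22.8 ± 2.90, *Clec4f* 22.2 ± 1.86, *C1qc* 15.2 ± 2.09, *Vsig4* 10.3 ± 1.14, *Folr2* 3.26 ± 0.403, *Marco* 2.31 ± 0.627, *Adgre1* 2.01 ± 0.576 and *Timd4* 1.59 ± 0.227 RPKM. The first 4 overlapped their neighbours, as did the last 4, while *Vsig4* lay apart from the genes on either side. The place of *C1qc* depends on the length used: its exons together span 1931 bases and its transcript in the annotation 1203 bases, and over the shorter length its level would overlap that of *Clec4f*. In HFCF livers labelled HuRHep-/- *Cd5l* was first at 78.4 ± 24.6 RPKM, followed by *C1qb* at 72.7 ± 13.1 and *C1qa* at 65.1 ± 8.89 RPKM. *Timd4* was last there too, at 1.44 ± 0.550 RPKM. Summed over the 10 genes, scaled CPM ranged from 201 to 257 in chow livers labelled WT, 268 to 398 in chow livers labelled HuRHep-/-, 292 to 487 in HFCF livers labelled WT and 444 to 682 in HFCF livers labelled HuRHep-/-. On each diet, every liver labelled WT except HFCF WT replicate 3 was below all 3 livers labelled HuRHep-/-.

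**Figure D1:**
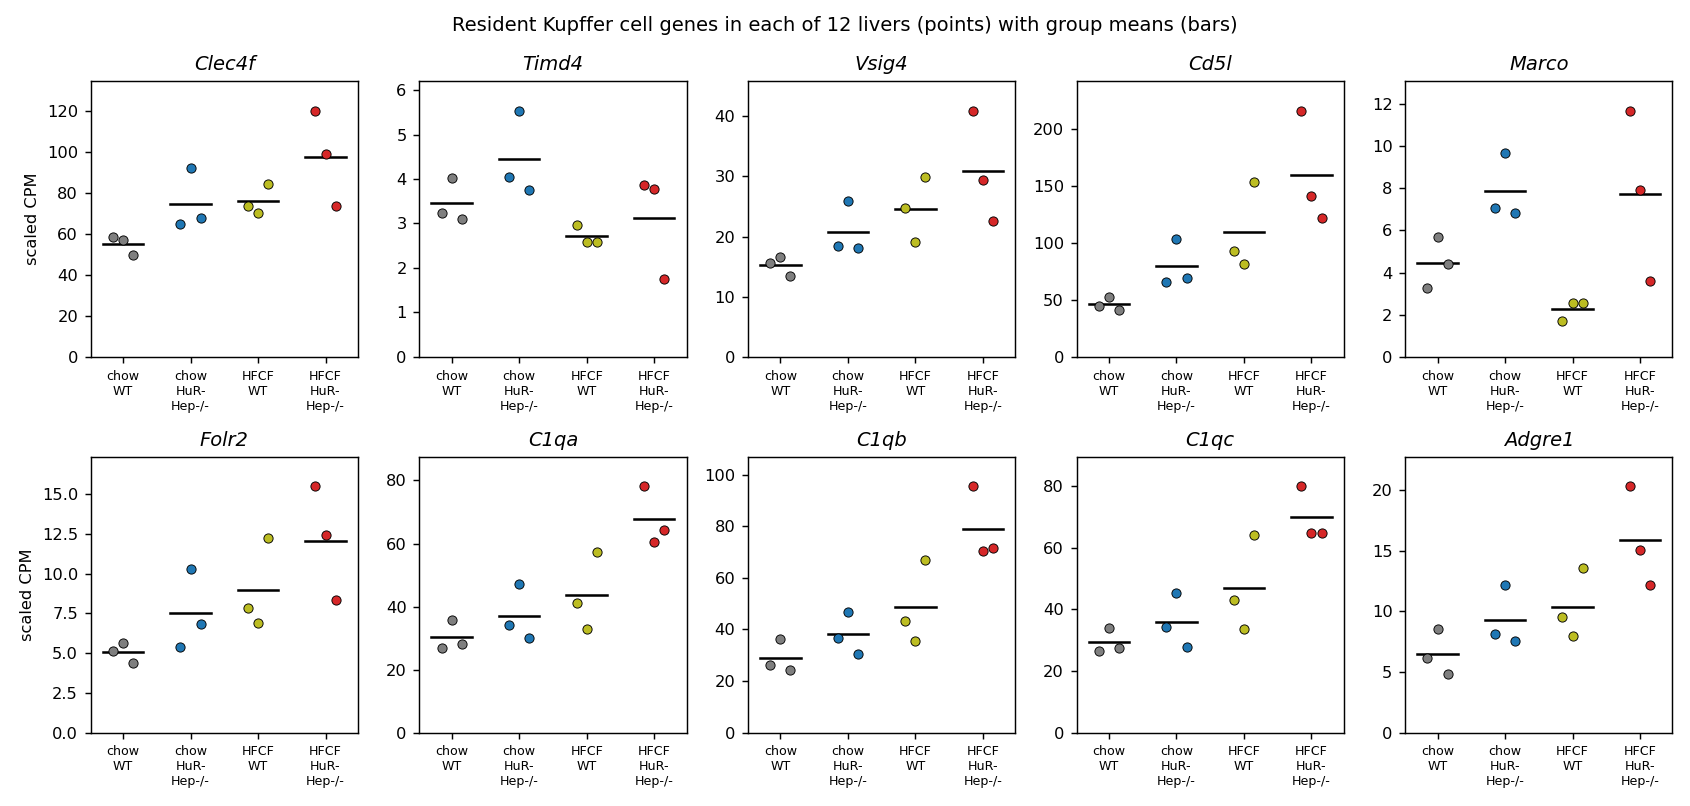
Scaled CPM (vertical axes, linear and from 0) of each of the 10 genes in the 12 livers (points, replicates 1 to 3 from left to right within a group), with the group mean as a bar. *Cd5l* climbs from about 46.4 CPM in chow livers labelled WT to 160 in HFCF livers labelled HuRHep-/-, whereas *Timd4* is lowest, at 2.71 CPM, in HFCF livers labelled WT.

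The first question was whether the label HuRHep-/- went with a different level of these genes on either diet. Over both diets together, 5 of the 10 genes were higher in livers labelled HuRHep-/- and none was lower (limma, adjusted p of at most 0.05 over 14535 genes): *Marco*, *Cd5l*, *C1qb*, *C1qa* and *Clec4f*. Of all genes tested 8.45% were called higher. Taken by their median, the 10 genes had a log2 fold change of 0.47, against 0.0052 over all genes. Within chow livers none of the 10 passed (4.28% of 13526 genes did), although all 10 estimates were above 0, as were 49.8% of all genes, and 4 had an unadjusted p under 0.05, against 23.4% of all genes. Within HFCF livers none passed either (7% of 14295 genes did), again with 10 of 10 estimates above 0, against 48.5% of all genes, and 5 with an unadjusted p under 0.05, against 29.6%. These counts of 0 depend on the fit. Voom weights also called 0 of the 10 on each diet, whereas on chow the replicate number as a block called 3 (*Cd5l*, *Marco* and *C1qb*, limma adjusted p = 0.0197, 0.0407 and 0.0473) and keeping genes with 10 counts or more in each library called *Cd5l* (limma adjusted p = 0.0498), and on HFCF a fit on all 12 libraries called *Marco* (limma adjusted p = 0.0170). The median log2 fold change was 0.43 in chow and 0.58 in HFCF. The livers labelled HuRHep-/- lay wholly above those labelled WT for 4 genes in chow (14.7% of all genes) and for 4 in HFCF (17.1%), and only *Marco* was in both sets. The others on HFCF were the C1q chains *C1qa*, *C1qb* and *C1qc*. Within groups the 10 genes moved together (median Pearson r of their pairs 0.81). They therefore do not count as 10 independent genes, here or for diet below.

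The calls over both diets differed in how far they rested on single livers. *Marco* kept its call in 12 of 12 refits that left out 1 library. *Cd5l* kept it in 6, *C1qb* in 5, *Clec4f* in 4 and *C1qa* in 3 of 12. These 4 calls were all lost without chow WT replicate 1 or 3, chow HuRHep-/- replicate 2, HFCF WT replicate 1 or 2, or HFCF HuRHep-/- replicate 1, with limma adjusted p up to 0.105 for *Clec4f*, 0.0696 for *Cd5l*, 0.103 for *C1qa* and 0.0829 for *C1qb*. *Clec4f* was lost also without chow WT replicate 2 or HFCF HuRHep-/- replicate 2, *C1qb* without chow HuRHep-/- replicate 1, and *C1qa* without that library or HFCF HuRHep-/- replicate 2 or 3. Each refit had 1 library fewer. With the replicate number as a block 3 of the 5 calls passed, and those of *C1qa* and *C1qb* did not. In the other direction, leaving out HFCF WT replicate 3 raised the count from 5 to 8 of 10.

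The second question was what the HFCF diet did to these genes in each genotype. In livers labelled WT 3 genes rose with HFCF (*Cd5l*, *C1qb* and *Vsig4*), against 11.1% of all genes called higher. In livers labelled HuRHep-/- 5 rose (*C1qb*, *C1qc*, *Cd5l*, *C1qa* and *Adgre1*), against 18.8%. No member was called lower in either. *Timd4* and *Marco* were the only 2 of the 10 with estimates below 0, and both had them in both genotypes. The median log2 fold change of the 10 was 0.65 in livers labelled WT and 0.73 in those labelled HuRHep-/-, against 0.0025 and -0.020 over all genes. The HFCF livers lay wholly above the chow livers for 4 genes under the label WT (17.4% of all genes) and wholly below them for 2 (20.2%). Under HuRHep-/- they lay wholly above for 5 genes (26.3%). The 2 diet comparisons and the genotype comparisons share livers, so they are not independent of each other.

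**Figure D2:**
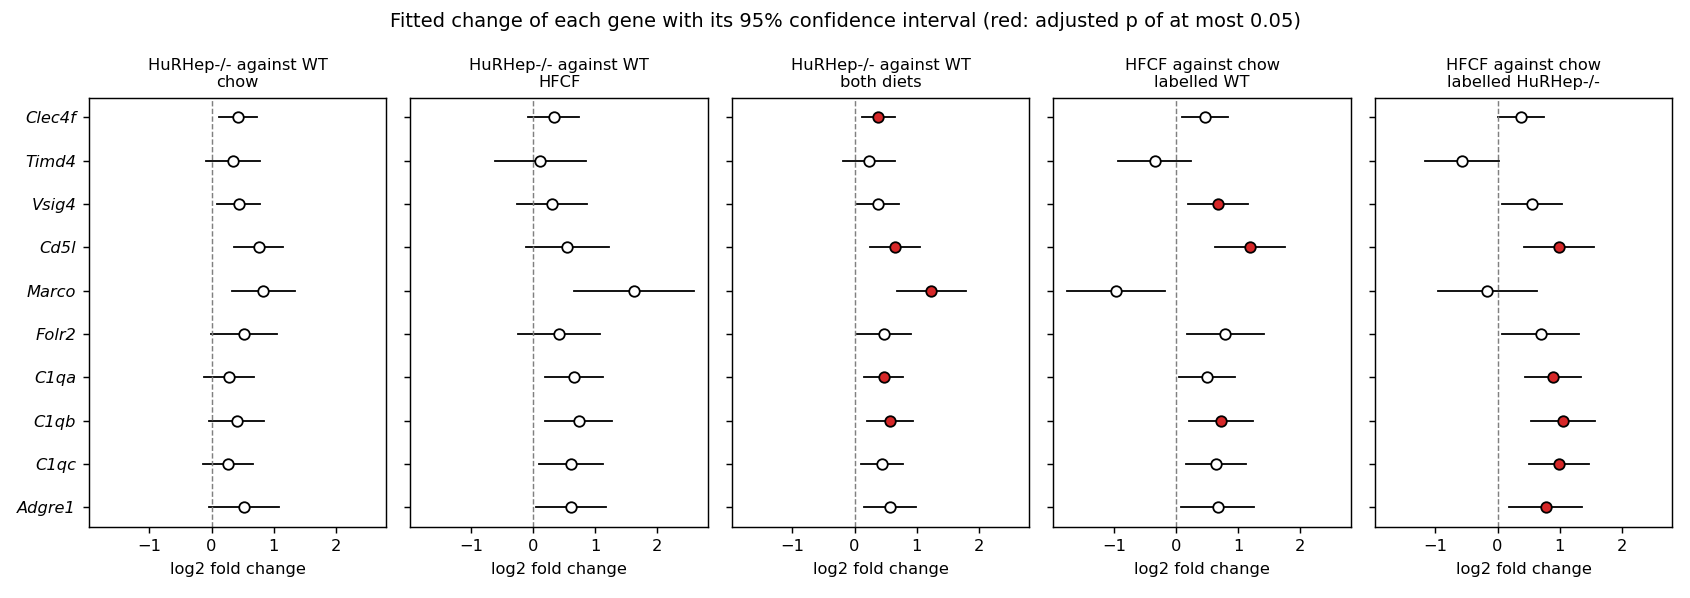
Fitted log2 fold change (horizontal axis) with its 95% confidence interval for each gene in 5 comparisons, red where the limma adjusted p was at most 0.05. All intervals for the label HuRHep-/- centre above 0, and *Timd4* and *Marco* are the only genes centred below 0 for diet.

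Among the surface markers, *Clec4f*, a C-type lectin that in mice is confined to Kupffer cells, was at 58.3, 56.9 and 49.7 CPM in chow livers labelled WT and at 64.7, 91.8 and 67.6 CPM in chow livers labelled HuRHep-/-. On HFCF it was at 73.3, 69.9 and 84.3 CPM under the label WT and at 120, 98.9 and 73.3 CPM under HuRHep-/-. The chow groups did not overlap, while on HFCF the lowest liver labelled HuRHep-/- sat level with the middle WT liver. The log2 fold change by genotype was 0.43 (SE 0.13) in chow, 0.33 (SE 0.17) in HFCF and 0.38 (SE 0.12) over both, the last with limma adjusted p = 0.0452, or 0.0509 with no filter on low counts, which ends the call. By diet it was 0.46 in livers labelled WT (limma adjusted p = 0.0685) and 0.37 in those labelled HuRHep-/- (limma adjusted p = 0.102), neither past the threshold. The first passed when only the 6 livers compared were fitted (limma adjusted p = 0.0238). The second passed without chow HuRHep-/- replicate 2 (log2 0.53, limma adjusted p = 0.0341) or HFCF HuRHep-/- replicate 3 (0.58, limma adjusted p = 0.0169) and was 0.22 without HFCF HuRHep-/- replicate 1.

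*Adgre1* encodes F4/80, the surface protein by which mouse macrophages are most often recognized. Its levels were 6.195, 8.51 and 4.81 CPM in chow livers labelled WT and 8.12, 12.2 and 7.55 CPM in those labelled HuRHep-/-. On HFCF they were 9.56, 7.94 and 13.6 CPM under the label WT and 20.3, 15.04 and 12.2 CPM under HuRHep-/-. The 2 genotypes overlapped on each diet. *Adgre1* rose with HFCF in livers labelled HuRHep-/- (log2 fold change 0.77, 1.71-fold, limma adjusted p = 0.0387), where no HFCF liver was below the highest chow liver. That call was lost without chow HuRHep-/- replicate 1 or 3 or HFCF HuRHep-/- replicate 1 or 2, with limma adjusted p up to 0.142. By genotype over both diets its log2 fold change of 0.57 missed the threshold (limma adjusted p = 0.0556), and passed without chow WT replicate 2, chow HuRHep-/- replicate 3, HFCF WT replicate 3 or HFCF HuRHep-/- replicate 3 (limma adjusted p = 0.0298 to 0.0475). With diet in livers labelled WT it passed in 1 of 6 refits, without chow WT replicate 2 (limma adjusted p = 0.0415), and in the others the limma adjusted p reached 0.287.

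*Folr2*, the folate receptor beta of tissue-resident macrophages, was at 5.10, 5.63 and 4.38 CPM in chow livers labelled WT and at 5.35, 10.3 and 6.84 CPM in those labelled HuRHep-/-. HFCF livers stood at 7.82, 6.86 and 12.2 CPM and at 15.5, 12.4 and 8.32 CPM, in the same order of genotypes. Every HFCF liver labelled WT was above every chow liver labelled WT, and the other groups overlapped. No comparison of *Folr2* passed with all libraries, the nearest being diet in livers labelled WT (log2 fold change 0.79, limma adjusted p = 0.0604, or 0.0488 when only the 6 livers compared were fitted). Single libraries moved *Folr2* across the threshold: the limma adjusted p was 0.0395 for that comparison without HFCF WT replicate 2, 0.0261 and 0.0281 for diet in livers labelled HuRHep-/- without chow replicate 2 or HFCF replicate 3, and 0.0482 for genotype over both diets without HFCF WT replicate 3. These were 1 of 6, 2 of 6 and 1 of 12 refits. In the others the limma adjusted p reached 0.212, 0.224 and 0.242.

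*Timd4* encodes Tim-4, a receptor for phosphatidylserine with which resident Kupffer cells take up dying cells. It was at 3.25, 4.02 and 3.10 CPM in chow livers labelled WT and at 4.05, 5.54 and 3.74 CPM in those labelled HuRHep-/-. On HFCF it was at 2.98, 2.57 and 2.58 CPM under the label WT and 3.86, 3.78 and 1.75 CPM under HuRHep-/-. All 3 HFCF livers labelled WT were below all 3 chow livers labelled WT, whereas under HuRHep-/- the groups overlapped. The log2 fold change with diet was -0.34 (95% CI -0.94 to 0.25) in livers labelled WT and -0.57 (95% CI -1.16 to 0.021) in those labelled HuRHep-/-. By genotype it was 0.24 over both diets (limma adjusted p = 0.411), the smallest estimate of the 10 genes. *Timd4* passed there in 1 of 12 refits, without HFCF HuRHep-/- replicate 3, the liver lowest in *Timd4* (limma adjusted p = 0.0481). In the others the limma adjusted p reached 0.676.

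Set against *Clec4f* within the same liver, a measure that does not depend on how libraries are scaled, *Timd4* separated the diets. The *Timd4* count was 5.57%, 7.06% and 6.23% of the *Clec4f* count in chow livers labelled WT and 6.26%, 6.03% and 5.54% in chow livers labelled HuRHep-/-. It was 4.06%, 3.68% and 3.05% in HFCF livers labelled WT and 3.22%, 3.82% and 2.38% in HFCF livers labelled HuRHep-/-. All 6 HFCF livers were below all 6 chow livers. The ratio was 0.545 times as high on HFCF as on chow (mean log2 difference -0.88, two-sided exact permutation of diet within genotype, p = 0.005, the smallest that the 400 arrangements allow). Between genotypes the mean log2 difference was -0.14 (exact permutation p = 0.28). Leaving out any 1 library kept the diet difference between -0.95 and -0.78 on the log2 scale.

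**Figure D3:**
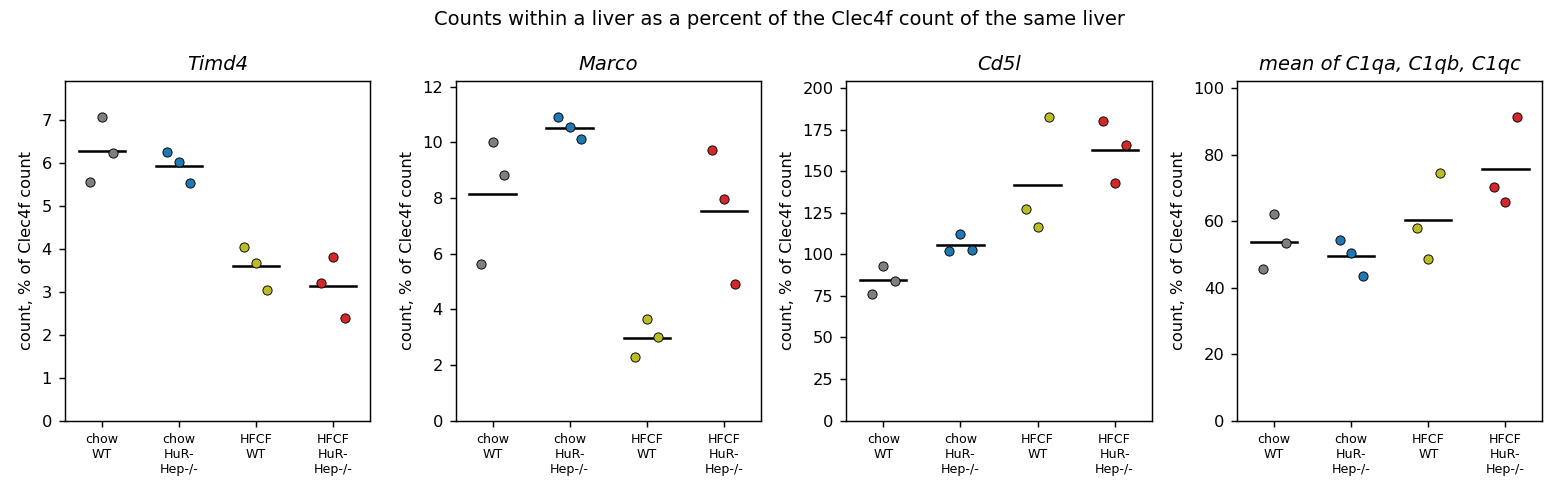
Counts of *Timd4*, *Marco*, *Cd5l* and the mean of *C1qa*, *C1qb* and *C1qc* as a percent of the *Clec4f* count of the same liver (points, with the group mean as a bar). For *Timd4* the 6 chow livers lie between 5.54% and 7.06% and the 6 HFCF livers between 2.38% and 4.06%.

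Complement was represented by the recognition subunit of the C1 complex and by a receptor for its products. C1q, which binds antibody complexes and dying cells, is built from the chains of *C1qa*, *C1qb* and *C1qc*, and liver macrophages are a main source. *C1qa* was at 26.9, 35.8 and 28.3 CPM in chow livers labelled WT and at 34.2, 47.1 and 29.9 CPM in those labelled HuRHep-/-. On HFCF it was at 41.0, 32.8 and 57.2 CPM under the label WT and at 78.2, 60.6 and 64.4 CPM under HuRHep-/-. The HFCF livers labelled HuRHep-/- therefore lay above every other liver, while the chow groups overlapped.

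*C1qb* showed the same arrangement, with 26.2, 36.5 and 24.1 CPM and 36.9, 46.9 and 30.6 CPM on chow, and 43.2, 35.7 and 66.8 CPM and 95.5, 70.3 and 71.5 CPM on HFCF, the label WT first on each diet. For *C1qc* the values were 26.6, 33.9 and 27.3 CPM and 34.4, 45.1 and 27.7 CPM on chow, and 43.0, 33.7 and 64.0 CPM and 79.8, 64.7 and 64.7 CPM on HFCF. All 3 chains rose with HFCF in livers labelled HuRHep-/-: *C1qa* 1.85-fold, *C1qb* 2.08-fold and *C1qc* 1.98-fold (limma adjusted p = 0.00633, 0.00494 and 0.00510), and each kept its call in 6 of 6 refits without 1 library. In livers labelled WT *C1qb* was the one chain called with all libraries (1.65-fold, limma adjusted p = 0.0443), and that call was lost without chow WT replicate 1 or 3 or HFCF WT replicate 1 or 3 (limma adjusted p up to 0.162), with the replicate number as a block (limma adjusted p = 0.0648) and when only the 6 livers compared were fitted (limma adjusted p = 0.0802). *C1qa* and *C1qc* had log2 fold changes of 0.50 and 0.64 there. *C1qc* passed with upper-quartile size factors (limma adjusted p = 0.0474) and without chow WT replicate 2 (0.0492) or HFCF WT replicate 2 (0.0142), and *C1qa* passed without the latter (0.0306).

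By genotype over both diets *C1qa* and *C1qb* were called higher (log2 fold change 0.47 and 0.57, limma adjusted p = 0.0441 and 0.0333), and *C1qc* was not (0.44, limma adjusted p = 0.0672, or 0.0357 without chow HuRHep-/- replicate 3 and 0.0139 without HFCF WT replicate 3). With the replicate number as a block neither *C1qa* nor *C1qb* passed (limma adjusted p = 0.0660 and 0.0517). On HFCF alone the 3 chains had log2 fold changes of 0.65, 0.73 and 0.61, and their groups did not overlap. None passed with all libraries (limma adjusted p = 0.0862, 0.0928 and 0.123). HFCF WT replicate 3, the WT liver highest in all 3 chains, decided these comparisons: without it the limma adjusted p was 0.0313 for *C1qa*, 0.0290 for *C1qb* and 0.0317 for *C1qc*. The chains held to each other closely. The *C1qb* count was between 85.3% and 122% of the *C1qa* count in the 12 livers, and the *C1qc* count between 92.7% and 112%. *C1qb* exceeded *C1qa* in all 6 HFCF livers, at 105% or more. It did so also in chow WT replicate 2 (101.9%) and chow HuRHep-/- replicates 1 (107.8%) and 3 (102.5%), so the diets overlapped.

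*Vsig4* encodes CRIg, the receptor through which Kupffer cells capture particles coated with complement C3 fragments. It was at 15.7, 16.7 and 13.4 CPM in chow livers labelled WT and at 18.5, 25.8 and 18.1 CPM in those labelled HuRHep-/-, with no overlap. HFCF livers stood at 24.8, 19.1 and 29.9 CPM under the label WT and at 40.9, 29.4 and 22.6 CPM under HuRHep-/-, with overlap. *Vsig4* rose with HFCF in livers labelled WT (1.59-fold, limma adjusted p = 0.0442). The call was lost without any chow WT replicate or without HFCF WT replicate 1 or 3, with limma adjusted p up to 0.156, and also with voom weights (limma adjusted p = 0.0625) and with the replicate number as a block (limma adjusted p = 0.0541). Over both diets its log2 fold change by genotype was 0.37 (limma adjusted p = 0.110, or 0.0481 without HFCF HuRHep-/- replicate 3). That was 1 of 12 refits, and in the others the limma adjusted p reached 0.236. With diet in livers labelled HuRHep-/- *Vsig4* passed with upper-quartile size factors (limma adjusted p = 0.0425) and without chow HuRHep-/- replicate 2 (0.0356) or HFCF HuRHep-/- replicate 3 (0.0213).

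The 2 scavenger molecules had the largest estimates of the 10 genes by genotype over both diets. *Marco*, a collagen-like scavenger receptor that binds bacteria and modified lipoproteins, was at 3.28, 5.69 and 4.38 CPM in chow livers labelled WT and at 7.04, 9.68 and 6.84 CPM in those labelled HuRHep-/-. On HFCF it was at 1.69, 2.54 and 2.54 CPM under the label WT and at 11.7, 7.89 and 3.60 CPM under HuRHep-/-. The genotypes did not overlap on either diet. Over both diets *Marco* was 2.35-fold higher in livers labelled HuRHep-/- (95% CI 1.60 to 3.47, limma adjusted p = 0.00710).

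On chow the *Marco* difference was 1.78-fold (limma adjusted p = 0.0787) and on HFCF 3.09-fold (95% CI 1.58 to 6.05, limma adjusted p = 0.0582). Single libraries moved both across the threshold: the limma adjusted p was 0.0457 without chow WT replicate 2 and 0.0354 without HFCF HuRHep-/- replicate 3. Each was 1 of 6 refits, and in the others the limma adjusted p reached 0.250 on chow and 0.161 on HFCF. With diet the log2 fold change was -0.97 in livers labelled WT (95% CI -1.76 to -0.18, limma adjusted p = 0.0726, or 0.0441 when only the 6 livers compared were fitted) and -0.16 in those labelled HuRHep-/- (95% CI -0.95 to 0.63, limma adjusted p = 0.746). Under the label WT all 3 HFCF livers were below all 3 chow livers. Relative to *Clec4f* of the same liver, *Marco* stood at 5.62% to 10.01% in chow livers labelled WT, 10.1% to 10.9% in chow livers labelled HuRHep-/-, 2.30% to 3.64% in HFCF livers labelled WT and 4.91% to 9.73% in HFCF livers labelled HuRHep-/-.

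*Cd5l* encodes a secreted scavenger protein, also called AIM, that macrophages release into blood under control of the liver X receptor. It was at 44.5, 53.0 and 41.6 CPM in chow livers labelled WT and at 65.9, 103 and 69.3 CPM in those labelled HuRHep-/-, with no overlap. On HFCF it was at 93.1, 81.3 and 154 CPM under the label WT and at 216, 141 and 122 CPM under HuRHep-/-, where the groups overlapped through HFCF WT replicate 3. *Cd5l* rose with HFCF in both genotypes, 2.28-fold in livers labelled WT (limma adjusted p = 0.00773) and 1.99-fold in those labelled HuRHep-/- (limma adjusted p = 0.0111). With *C1qb* it was one of the 2 genes called for diet in both, and each *Cd5l* call was kept in 6 of 6 refits without 1 library. By genotype it was 1.58-fold higher over both diets (limma adjusted p = 0.0282) and on chow just short of the threshold (1.69-fold, limma adjusted p = 0.0516). The *Cd5l* count was 76.3% to 93.2% of the *Clec4f* count in chow livers labelled WT, 102% to 112% in chow livers labelled HuRHep-/- and above 116% in all 6 HFCF livers.

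Whether diet altered the difference between genotypes was tested as an interaction. None of the 10 genes passed (limma), none had an unadjusted p under 0.05, and 0% of the 14535 genes were called, while 14.6% had an unadjusted p under 0.05. A fit with voom weights called 1 gene, which was not a member. The largest interaction estimate was that of *Marco* (log2 0.80, 95% CI -0.32 to 1.92, limma adjusted p = 0.495), that is, the fold difference between genotypes on HFCF was 0.804 to 3.79 times that on chow. For *Clec4f* the interval ran from -0.62 to 0.44 and for *Timd4* from -1.06 to 0.61.

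Within a group the 10 genes deviated together. After each gene's group mean was subtracted, all 10 were above their mean in chow WT replicate 2, chow HuRHep-/- replicate 2 and HFCF HuRHep-/- replicate 1, and all 10 below it in chow HuRHep-/- replicates 1 and 3 and HFCF HuRHep-/- replicate 3. HFCF WT replicate 3 had 9 of 10 above. Mean deviations of the 10 ranged from -0.40 to 0.39 on the log2 scale. Over the 12 libraries the 45 pairs of genes had Pearson r between 0.39 and 0.99 with a median of 0.81, as a description, since the points share library and scaling. The 3 C1q chains were closest (*C1qa* with *C1qc*, r = 0.99). *Timd4* with *C1qa* was the loosest pair, and *Timd4* and *Marco* held better to each other (r = 0.81) than either did to any C1q chain (r = 0.39 to 0.50).

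**Figure D4:**
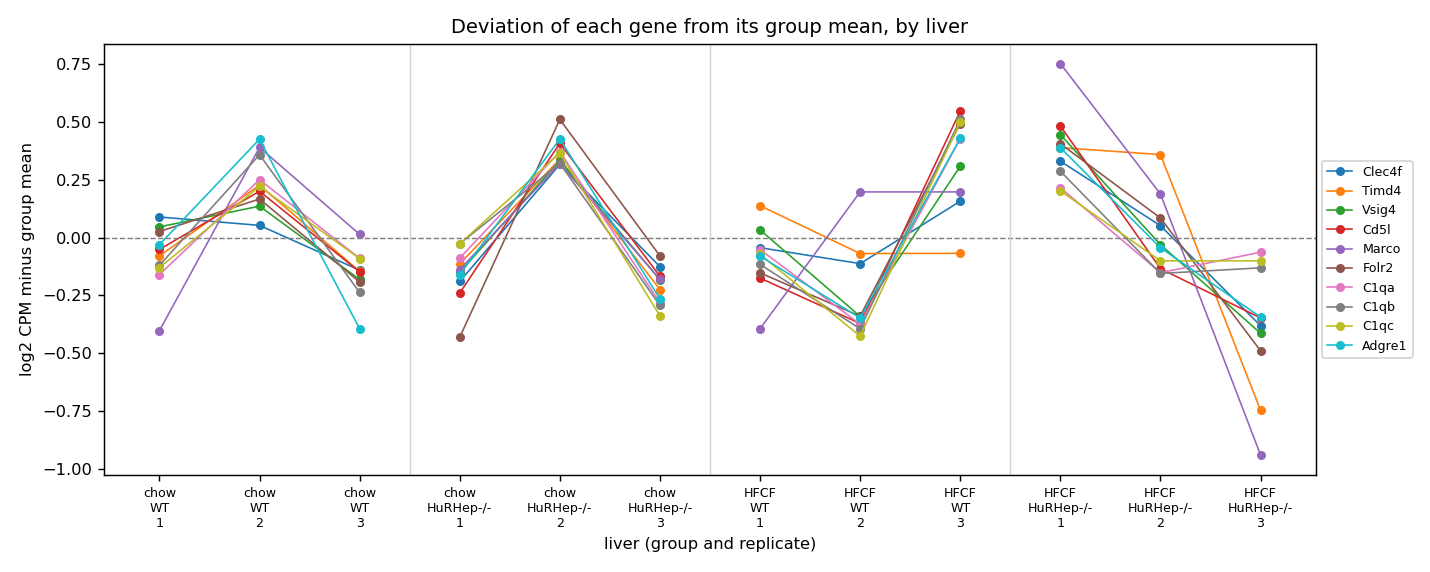
Log2 CPM of each gene minus its group mean (vertical axis) in the 12 livers, lines joining the livers of a group only to guide the eye. The 10 genes move together in most livers, and *Timd4* and *Marco* drop furthest in HFCF HuRHep-/- replicate 3, to -0.75 and -0.94.

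Of 11996 other genes with a mean of at least 1 CPM, the 10 whose deviations over the 12 libraries were most like the mean of the resident genes were *Cfp* (properdin, r = 0.97), *Sdc3* (0.97), *Csf1r* (the receptor for macrophage growth factors, 0.96), *Itgal* (0.96), *Il1a* (0.95), *Slc15a3* (0.94), *Cdca3* (0.94), *Pilra* (0.93), *Ncapg2* (0.93) and *Bin2* (0.92). By genotype over both diets *Itgal*, *Sdc3* and *Ncapg2* passed, all higher (log2 fold change 0.60, 0.56 and 0.65), whereas *Csf1r* did not (0.36, limma adjusted p = 0.149) and *Il1a* had an estimate of -0.15.

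Calls among the genes of the other lists rested on single livers as well. Without 1 library in turn, the list genes named here kept their calls in 9 of 36 refits for genotype on chow, 21 of 90 on HFCF and 252 of 336 over both diets, and in 181 of 222 for diet in livers labelled WT and 280 of 309 in those labelled HuRHep-/-. Over all genes, 2.24% were called higher by genotype on chow, 2.81% on HFCF and 8.45% over both diets, and 2.04%, 4.19% and 10.8% lower. With diet 11.1% were called higher and 13.3% lower in livers labelled WT, and 18.8% higher and 20.9% lower in those labelled HuRHep-/-.

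Other macrophage genes were compared from a list of 24 (*Csf1r*, *Cd68*, *Lyz2* and others found also in monocytes and recruited cells). By genotype over both diets 5 were called higher and 0 lower, with a median log2 fold change of 0.40, among them *Laptm5* (0.67), the protease *Ctss* (0.60), *Cybb* of the phagocyte oxidase (0.57) and lysozyme *Lyz2* (0.54). On chow alone *Slc40a1*, the iron exporter ferroportin, was the single call (log2 0.45, limma adjusted p = 0.0436), and on HFCF none was. HFCF raised 12 of 24 in livers labelled WT, with *Ptafr* (log2 1.83), *Mpeg1* (1.28), *Cd68* (1.24) and *Lyz2* (1.20) in front. In livers labelled HuRHep-/- it raised 17, led by *Ms4a7* (1.92), *Ptafr* (1.77) and *Cd14* (1.72), and lowered 2, *Cd163* (-1.39), the receptor for hemoglobin-haptoglobin, and *Slc40a1* (-0.69).

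Of 13 transcription factors of Kupffer cells, *Spi1*, the gene for PU.1, was the only call by genotype over both diets (log2 0.63, limma adjusted p = 0.0193), and *Irf8* the only one on HFCF (0.75, limma adjusted p = 0.0411). None was called on chow. With HFCF *Runx1* (1.67), *Spi1* (0.96) and *Spic* (0.95) rose and *Smad4* fell (-0.37) in livers labelled WT. In livers labelled HuRHep-/- 5 rose, including *Runx1* (1.46), *Spi1* (1.42), *Irf8* (1.05) and *Id1* (0.85), and 1 fell.

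Signals that hold or call macrophages to the liver were read from 11 genes, 10 of them testable on chow. *Icam1* was called higher by genotype over both diets (log2 0.76, limma adjusted p = 0.00575). On HFCF *Icam1* (0.98) and *Csf1*, the growth factor on which macrophages depend (0.57, limma adjusted p = 0.0345), were called, and on chow none was. Diet raised *Ccl2*, the chemokine that draws monocytes, by log2 2.31, *Vcam1* by 0.83 and *Csf1* by 0.73 in livers labelled WT. In livers labelled HuRHep-/- it raised 8, with *Ccl2* (3.36), *Il34* (1.61), *Tgfb1* (1.18) and *Csf1* first, and lowered 1.

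The genes that act after C1q were divided. In the list of 14 early complement genes, 13 testable on HFCF and over both diets and 12 on chow, 2 leukocyte complement receptor chains were higher by genotype over both diets (*Itgam* 0.90 and *Itgb2* 0.56) and the hepatocyte-made protease *C1s1* was lower (-0.32, limma adjusted p = 0.00273). *C1s1* was also the single call on HFCF, and no gene was called on chow. With HFCF 3 receptor genes rose in both genotypes, *C3ar1* (1.03 and 1.73), *Itgb2* (1.16 and 1.61) and *Itgam* (1.15 and 1.47), while 5 genes fell in livers labelled WT and 6 in those labelled HuRHep-/-, led by *C2* (-0.80 and -0.9998).

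Genes of apoptotic-cell uptake, 14 in number with 13 testable over both diets, gave 5 higher by genotype, among them *Gas6* (log2 0.62), *Cd300a* (0.54), *Axl* (0.47) and *Pros1* (0.25), bridging proteins and receptors for phosphatidylserine as *Timd4* is. On chow *Pros1* and on HFCF *Gas6* were the single calls. HFCF raised 5 in livers labelled WT, including *Cd300lf* (1.19), *Cd300a* (1.14), *Elmo1* (1.10) and *Axl* (0.92). It raised 8 and lowered 3 in those labelled HuRHep-/-, with *Havcr2* (2.16) and *Gas6* (1.23) among the former. Of 12 other scavenger receptors, *Marco* having been taken with the resident genes, *Scara3* (0.94), *Msr1* (0.57) and *Cd68* (0.53, counted also among the macrophage genes) were higher by genotype over both diets and *Cd36* lower (-0.56). *Cd36* was the only call on chow, and on HFCF *Scara3* was called higher and *Colec12* lower. *Cd36* rose with HFCF by log2 1.95 and 2.79 in the 2 genotypes.

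**Figure D5:**
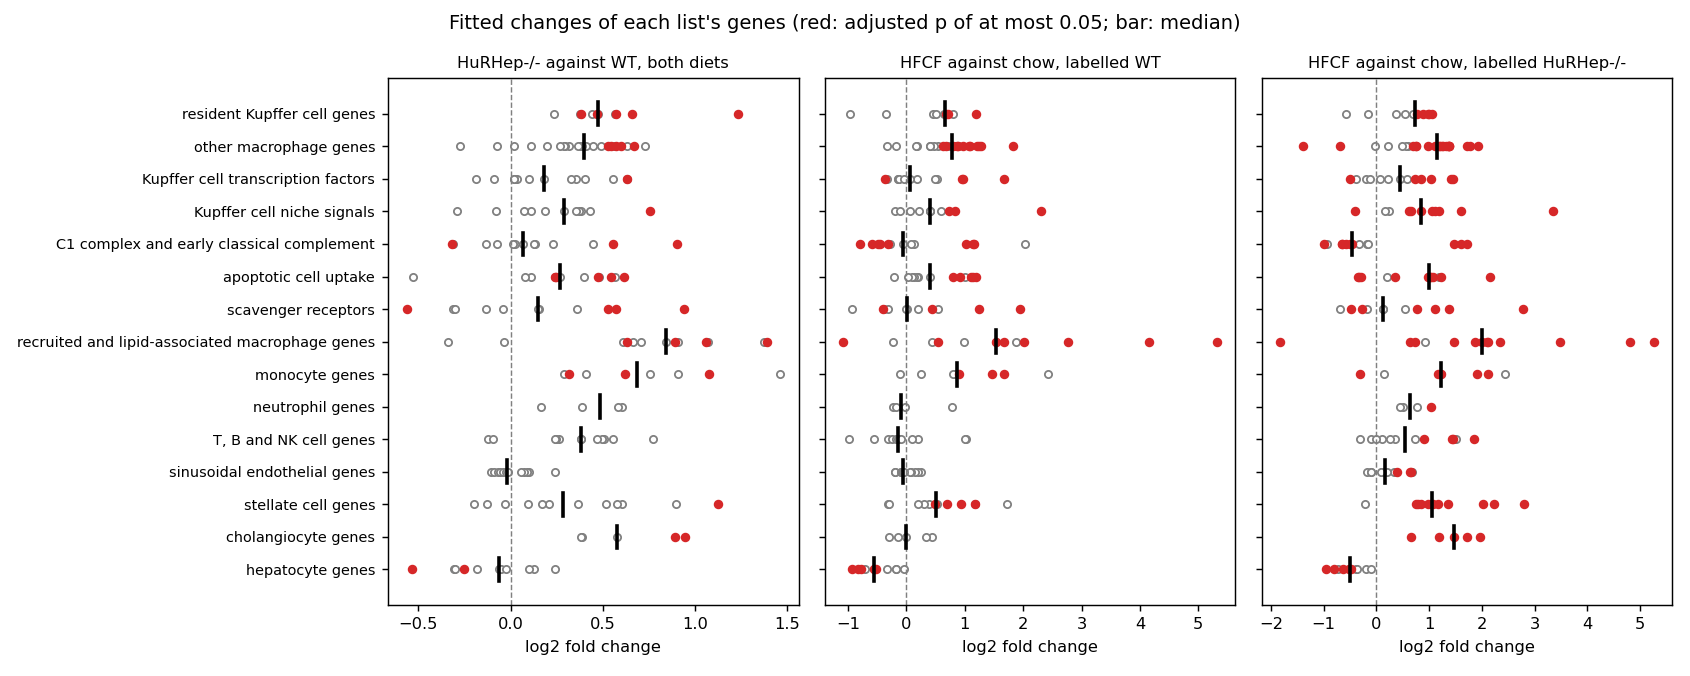
Log2 fold change (horizontal axis) of every tested gene of 15 lists in 3 comparisons, red where the limma adjusted p was at most 0.05, with the list's median as a bar. The resident genes have medians of 0.47, 0.65 and 0.73 in the 3 panels, and the recruited and lipid-associated macrophage genes 0.84, 1.53 and 2.00.

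Markers of other cells differed in how many were called. Of 13 genes of recruited and lipid-associated macrophages, 4 were higher by genotype over both diets, *Lpl* (log2 1.39), *Trem2* (1.06), *Spp1* (0.89) and *Cd9* (0.63). *Lpl* was the single call on chow (1.42) and *Cd9* on HFCF (1.05). With HFCF 7 rose and 1 fell in livers labelled WT and 11 rose and 1 fell in those labelled HuRHep-/-, *Gpnmb* by 5.32 and 4.82 and *Mmp12* by 4.15 and 5.26, with *Trem2* at 2.76 in the former. Their summed level was 544 to 599 CPM and 474 to 707 CPM on chow, and 617 to 977 CPM and 961 to 1182 CPM on HFCF, the label WT first. *Plin2* made up most of this sum, with group means of 444, 409, 653 and 675 CPM in the same order. The summed means were 572, 591, 847 and 1074 CPM, so the sum is largely the level of that gene. Of 8 monocyte genes, 3 were higher by genotype (*Ly6c2* 1.08, *Plac8* 0.62 and *Fn1* 0.32, the last made also by hepatocytes). *Fn1* was the single call on chow and *Plac8* on HFCF. Diet raised 3 of them in livers labelled WT and 4 in those labelled HuRHep-/-, *Ccr2*, counted also among the recruited macrophage genes, by 1.67 and 2.11, and lowered *Fn1* in the latter. None of these genes was at 0 in any group, and their part in the changes of the resident genes was not tested.

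Sinusoidal endothelial genes, whose cells line the space in which Kupffer cells sit, gave 0 of 12 called for genotype on chow, on HFCF and over both diets (limma), with medians of -0.12, 0.098 and -0.019, and 0 called for diet in livers labelled WT. At an unadjusted p under 0.05 there were 0, 2, 1 and 1 of the 12 in these 4 comparisons. In livers labelled HuRHep-/- diet raised 3 of 12, *Eng* (0.66), *Pecam1* (0.65) and *Egfl7* (0.39), a share near the 18.8% of all genes called higher. Their summed level stayed within 210 to 292 CPM in the 12 livers. Hepatocyte genes were called lower with HFCF in 5 of 11 cases in livers labelled WT, against 13.3% of all genes (*Ass1* -0.93, *Cps1* -0.83, *Fga* -0.78 and *Ttr* -0.55 first) and in 6 of 11 in those labelled HuRHep-/-, against 20.9%. By genotype over both diets 2 were lower, *Cyp2e1* (-0.53) and *Apob* (-0.25), the same 2 genes as on HFCF alone, and none was called on chow.

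Of 12 stellate cell genes *Acta2* was called higher by genotype on HFCF (1.26), and diet raised 4 in livers labelled WT and 11 in those labelled HuRHep-/- (*Col1a1* by 2.80). Of 7 cholangiocyte genes, 5 of them testable, 2 were higher by genotype (*Epcam* 0.94 and *Spp1* 0.89, the latter counted also among the recruited macrophage genes), *Krt7* and *Krt19* on HFCF (1.39 and 1.31), none on chow, 0 were called for diet in livers labelled WT, and all 5 rose with diet in those labelled HuRHep-/-. Of 8 neutrophil genes, 7 of them in the tables, 3 were testable on chow and 4 in the other comparisons, and 1 was called in these comparisons, *Csf3r* with diet in livers labelled HuRHep-/- (1.03). Of 13 T, B and NK cell genes 8 were testable on chow, 11 on HFCF and 12 over both diets and for diet. None was called for genotype in these comparisons or for diet in livers labelled WT (limma), and 4 rose with diet in those labelled HuRHep-/- (*Cd8a* by 1.84). At an unadjusted p under 0.05 there were 0, 6 and 4 of these lymphocyte genes for genotype on chow, on HFCF and over both diets, and 2 for diet in livers labelled WT. Neutrophil and lymphocyte genes summed to at most 5.91 and 11.03 CPM.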

How the data were processed

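RNA was sequenced from whole liver of 12 mice, with 1 library a mouse. The authors deposited read counts per gene, 1 table for each diet, as text with digit-group commas, and every value was whole after the commas were removed. The study's methods name CLC Genomics Workbench, RefSeq annotation and reverse-strand counting, and the submitters' processing notes name the builds GRCm38.p6 and mm10. Library totals were 30071731 to 35949203 counts.

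Counts were scaled by TMM factors (trimmed mean of M values, own code) and taken to log2 CPM with a pseudocount of 0.5. Genes entered a fit with at least 10 counts in a library of median size in 3 libraries and 15 counts in all. Differences were fitted with limma 3.58.1 (R 4.3.3) with a variance trend and Benjamini-Hochberg adjustment over all genes tested, called at an adjusted p of at most 0.05. Genotype within a diet used the 6 libraries of that diet, and the other comparisons used the 12 libraries. Fits were tested on simulated counts in which genes varied independently with a single dispersion. Genes that move together, as here, were not simulated, so this checks the code and not the calls. The *Timd4* to *Clec4f* ratio was compared with an exact permutation test. Per-length levels used the union of GENCODE exons. Promoter windows came from RefSeq, and figures were drawn with matplotlib 3.10.9.

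The members and lists were chosen with earlier results of these data known. Of each list up to 4 called genes with the largest change were named per comparison, and *Slc40a1* and *Fn1* with diet in livers labelled HuRHep-/- were named after their values were seen. Livers of one group are separate mice as far as the labels say, and p-values measure the spread between these samples. Deviations from the group means in same-numbered HFCF livers had r = 0.23, 0.28 and 0.16 over genes. Replicate 1 of chow HuRHep-/- and of HFCF WT, which were not compared, had r = 0.23. Livers with different numbers were not correlated, so whether a number pairs livers was not settled. Same-numbered livers of the other compared groups had r from -0.12 to 0.22. The alternatives tried were other size factors, filters, pseudocount and variance model, other libraries in the fit, a fold criterion of 1.5, the replicate block and leaving out each library. One result for genotype among the stellate cell genes is not reported here.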

Additional observations from a re-analysis of the deposited data

How the results depend on the processing

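Without 1 library in turn the number of the 10 resident genes called ranged from 0 to 1 for genotype on chow, 0 to 3 on HFCF, 1 (without chow WT replicate 1) to 8 (without HFCF WT replicate 3) over both diets, 1 to 6 for diet in livers labelled WT and 4 to 8 in those labelled HuRHep-/-. Genes called ranged from 9 (without chow HuRHep-/- replicate 2) to 526 on chow against 579 with all libraries, 32 (without HFCF HuRHep-/- replicate 1) to 1244 on HFCF against 1000, 1985 (without chow WT replicate 1) to 3987 for diet under the label WT against 3545, and 0 to 40 for genotype by diet (40 without HFCF WT replicate 3). Signs turned only for uncalled estimates. On the log2 scale these ran from -0.080 to 0.49 for *Timd4* by genotype on HFCF and -0.53 to 0.32 for *Marco* by diet in livers labelled HuRHep-/-. For genotype by diet they ran from -0.24 to 0.11 (*Clec4f*), -0.41 to 0.16 (*Timd4*), -0.33 to 0.10 (*Vsig4*), -0.43 to 0.085 (*Cd5l*), -0.30 to 0.16 (*Folr2*), -0.11 to 0.32 (*Adgre1*) and -0.045 to 0.043 (*Elavl1*), the last also 0.016 with upper-quartile factors against -0.020.

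With the replicate block, 3 resident genes were called on chow (*Cd5l*, *Marco* and *C1qb*) against 0, 3 over both diets against 5 (*C1qa* and *C1qb* lost), and 1 for diet in livers labelled WT against 3 (*Vsig4* and *C1qb* lost). Voom weights ended the *Vsig4* call for that diet comparison, and fitting with no filter on low counts ended the *Clec4f* call over both diets. On HFCF the block called 0 resident genes and 1310 genes against 1000. Requiring at least 10 counts in every library called 1 on chow, *Cd5l*. Fits on 12 libraries called 920 genes on chow and, on HFCF, 1685 genes and 1 resident gene, *Marco*. The fit on the 6 libraries compared called 5 resident genes and 2067 genes for diet under the label WT, with *Marco* lower and *Clec4f* and *Folr2* higher gained and *C1qb* lost. With a fold of at least 1.5 the genes called were 313 on chow, 525 on HFCF, 731 over both diets with 2 resident genes, 1360 for diet under the label WT and 2787 under HuRHep-/- against 5767. For genotype by diet 1 gene was called with no filter and 1 with voom weights against 0. The causes were not tested beyond the smaller number of libraries or genes in a fit.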
